A study of Mus musculus with 2 samples.

Results

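Cluster 3 was 1 of 23 numbered groups of nuclei in single-nucleus RNA sequencing of the mouse medial prefrontal cortex. It was taken by its number in the deposited table, and it held 1074 of 12739 nuclei, or 8.43%, from both libraries together. Its members carry no cell type name in the table. Its genes included Ndst4, Abi3bp, Bmpr1b, Tfap2d, Tenm3, Nell1 and Crtac1, the markers given with the cluster number.

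The tissue came from male Npas2 knockout mice and from wild-type littermates, all kept on 12 h of light and 12 h of darkness and all taken at ZT20, where ZT counts hours from lights on. The medial prefrontal cortex of 4 mice was pooled for each genotype before nuclei were isolated, so each genotype is 1 library made with the 10x Genomics 3' chemistry. NPAS2 is a partner of BMAL1 in the circadian clock. The sources used here do not give the allele, the deleted part of the gene, the strain or the age.

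Of all nuclei, 7161 were in the knockout-labelled library and 5578 in the wild-type-labelled library. Npas2 itself was at 1.39 in the knockout-labelled library, against 1.29 in the wild-type-labelled library, so its level does not check the labels, and a 3' tag outside a deleted part could not. All levels are means over nuclei, after each nucleus's counts were scaled to a total of 10000. Each column of the table is 1 such mean, with no values per nucleus and no replicate, so no difference has a test. The estimated depth was a mean of 4171 unique molecular identifiers (UMIs) per nucleus in cluster 3, with cluster means between 1521 and 5276. At that depth 3 UMIs in all of cluster 3 give a level of 0.0081, and 11076 of 31053 genes reached 0.05, the floor used for counting genes.

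Excitatory neurons of the cortex release glutamate and are commonly told apart by layer and projection target. Transcription factors such as Fezf2 (projections out of the telencephalon) and Foxp2 (layer 6) mark these classes. The areas next to the medial prefrontal cortex, among them the olfactory cortex, claustrum and amygdala, hold excitatory neurons with other combinations of factors. AP-2 delta, the product of Tfap2d, is a DNA-binding factor of the AP-2 family, known from the developing midbrain and retina.

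Ndst4, which encodes a heparan sulfate N-deacetylase and N-sulfotransferase, led the cluster. The markers had been chosen for being high in this cluster, so their levels describe it and test nothing. The Ndst4 level was 12.4 in cluster 3, and the next clusters were 17 at 4.95 and 11 at 2.20. The fold over cluster 17 was 2.52 (95% interval 2.20 to 2.89, counting error only), and 78.4% of all Ndst4 signal in the table lay in cluster 3. In the 8 clusters treated here as excitatory-like (0, 1, 2, 5, 7, 15, 16 and 20) Ndst4 lay between 0.0583 and 0.309. That set is a choice and leaves out cluster 17, the highest for a list of mitral and tufted cell markers, and cluster 21, where Ndst4 was at 0. The gene lies at chr3:125404076-125728899 (mm10).

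Abi3bp, which encodes a secreted matrix protein, was at 8.73 in cluster 3, followed by clusters 17 and 15 at 3.35 and 3.32. Its fold over cluster 17 was 2.61 (2.22 to 3.1), and 63.4% of its signal lay in cluster 3. Crtac1, which encodes a secreted cartilage acidic protein also known to act as a Nogo receptor antagonist, was at 2.15 in cluster 3 and at 1.09 in cluster 9, the next one. Nell1, a secreted signalling protein, was at 7.06 in cluster 3 and 6.26 in cluster 20, and the interval of their ratio, 0.946 to 1.36, includes 1.

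The other 3 markers were higher in another cluster. Bmpr1b, a type I receptor for bone morphogenetic proteins (BMPs), was at 4.41 in cluster 3 and 4.78 in cluster 14, with an interval of the ratio from 0.789 to 1.09. Tenm3, a teneurin that matches synaptic partners in the hippocampus and visual system, was at 21.7 in cluster 3 and 26.8 in cluster 4. Tfap2d was at 0.610 in cluster 3 and 1.33 in cluster 20, a cluster of 52 nuclei, while cluster 18 came next at 0.0566. Cluster 3 still held 70.1% of all Tfap2d signal, through its larger number of nuclei.

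**Figure D1:**
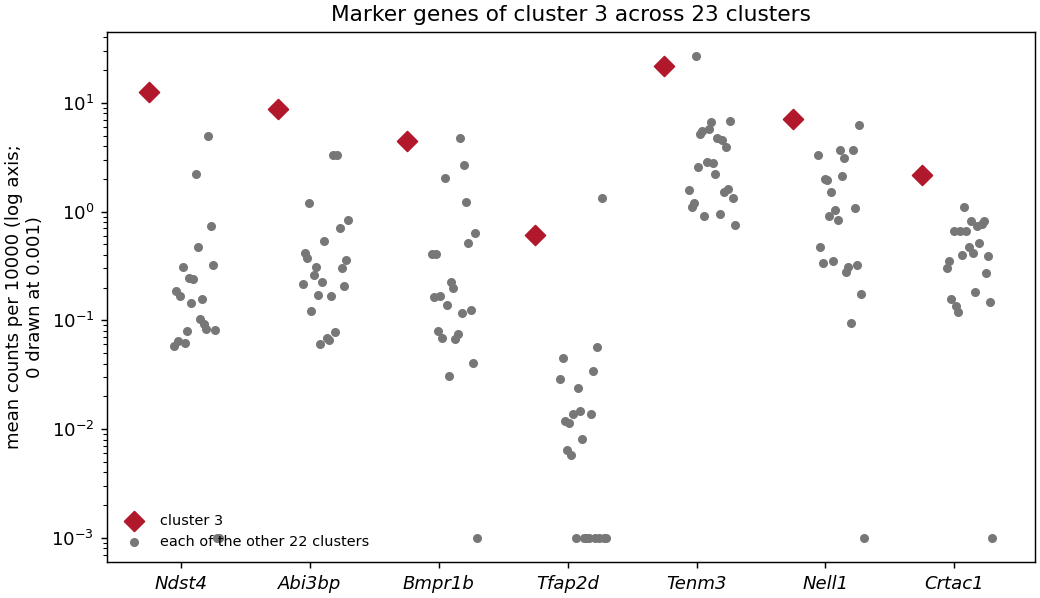
Mean level of the 7 markers in cluster 3 (red diamonds) and in each of the other 22 clusters (grey points), in counts per 10000 on a log axis. Ndst4, Abi3bp, Nell1 and Crtac1 are highest in cluster 3, and Bmpr1b, Tfap2d and Tenm3 each have 1 cluster above it.

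Over all genes at the floor, 128 had their highest level in cluster 3, 91 of them with an assigned name. At least 2-fold over every other cluster, with a pseudocount of 0.01 added to both levels, were 11 of 11076 genes (0.0993%), of which 6 have an assigned name: Klkb1, Abi3bp, Ndst4, Fshr, Kcnq1 and Lmo3. Lmo3, a LIM-only transcriptional cofactor, was just inside, at 3.79 in cluster 3 and 1.88 in cluster 15. Just outside were Rgs14, a regulator of G protein signalling known from hippocampal CA2, at 0.205 in cluster 3 and 0.0986 in cluster 1, and Crtac1.

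Several of these leading genes rested on few counts. Klkb1, plasma kallikrein, was at 0.176 in cluster 3 and 0.0634 in cluster 2. Fshr, the receptor for follicle-stimulating hormone, was at 0.20 in cluster 3 and 0.0852 in cluster 0. Kcnq1, a voltage-gated potassium channel, was at 0.206 in cluster 3 and 0.0879 in cluster 21, a cluster of 37 nuclei, with an interval of the ratio from 0.407 to 93.4. Genes with many counts had smaller folds. Lrrtm4, a postsynaptic adhesion protein, was at 79.0 in cluster 3 and 54.7 in cluster 5. Rasal2, a Ras GTPase-activating protein, was at 10.7 in cluster 3 and 7.21 in cluster 0. Dok6, an adaptor of receptor tyrosine kinases, was at 11.6 in cluster 3 and 8.24 in cluster 5.

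Each marker's promoter was looked up in RefSeq's table for GRCm38.p6, which holds 250 bases before to 50 after each start. Tfap2d is shown as the leading transcription factor, and Crtac1 and Fshr as leading genes with a match to a motif searched. The motifs were the AP-2 motif GCCNNNGGC, which reads the same on both strands, and the E-box CACGTG bound by NPAS2 and BMAL1, likewise the same on both strands. Capitals mark the motif, and Tfap2d's own promoter holds neither. The windows are chr1:19102772-19103071 on the plus strand for Tfap2d, chr19:42431739-42432038 on the minus strand for Crtac1 and chr17:89200626-89200925 on the minus strand for Fshr.
Tfap2d: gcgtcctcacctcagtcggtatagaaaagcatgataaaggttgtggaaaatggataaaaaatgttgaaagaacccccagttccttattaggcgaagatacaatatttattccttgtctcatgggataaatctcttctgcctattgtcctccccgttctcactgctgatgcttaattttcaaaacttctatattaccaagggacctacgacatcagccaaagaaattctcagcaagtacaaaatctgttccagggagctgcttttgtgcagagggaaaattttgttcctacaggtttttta
Crtac1: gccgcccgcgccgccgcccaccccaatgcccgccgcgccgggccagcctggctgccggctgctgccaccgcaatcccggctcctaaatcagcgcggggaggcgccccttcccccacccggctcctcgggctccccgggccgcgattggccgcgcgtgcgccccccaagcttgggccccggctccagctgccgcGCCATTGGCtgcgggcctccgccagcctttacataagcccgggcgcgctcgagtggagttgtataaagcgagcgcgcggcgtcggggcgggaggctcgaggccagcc
Fshr: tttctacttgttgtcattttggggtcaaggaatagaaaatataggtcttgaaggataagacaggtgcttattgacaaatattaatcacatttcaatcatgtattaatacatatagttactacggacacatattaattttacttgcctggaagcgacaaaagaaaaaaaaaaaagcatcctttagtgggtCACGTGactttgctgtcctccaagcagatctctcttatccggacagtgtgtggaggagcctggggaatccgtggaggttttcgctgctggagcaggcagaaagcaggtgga

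Of 29 genes asked for (the 7 markers and the 25 leading genes, some in both), 19 were in the table, with 26 promoters. The AP-2 motif was in 5 of these (19.2%), those of Acp7, Crtac1, Lmo7 and Megf6, against 16.6% of all 32851 promoters. The E-box was in 1 (3.85%), that of Fshr, against 7.15% of all. Both shares rest on few promoters, and a match is letters in a window, not binding.

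Of the glutamatergic list of 9 genes, 0 were at least 2-fold higher than the median excitatory-like cluster, 1 was lower (Neurod6) and 2 were below the floor (shares of all genes there, 4.48% and 2.1%). Slc17a7, the vesicular glutamate transporter of most cortical excitatory neurons, was at 2.21 in cluster 3, and the median of the excitatory-like clusters was 2.11. Camk2a, a kinase of excitatory synapses, was at 4.23 in cluster 3 against a median of 3.79 in those clusters. Of the GABAergic list, 4 of 7 members were at least 2-fold lower than the median of the other 22 clusters, as were 2.46% of all genes tested, and 3 were below the floor. Gad1, which makes GABA, was at 0.130 in cluster 3 against 0.394 in the median other cluster. The direction of Gad1 turned against the excitatory-like clusters, whose median was 0.107.

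Of 51 transcription factors listed, cluster 3 was above all 8 excitatory-like clusters for Nr2f1, Nfia, Meis2, Zbtb20, Lmo3 and Tox3, and below all 8 for Tshz3, Zfpm2 and Id2. Tshz3, a teashirt zinc-finger factor, was at 0.282 in cluster 3, while the 8 clusters lay between 0.761 and 1.81 with a median of 1.2, so it was 4.15-fold lower than that median. Zfpm2, a GATA cofactor, was at 0.534 in cluster 3, close to the lowest of the 8 clusters at 0.551. Over all genes, 893 of 11498 (7.77%) were above every excitatory-like cluster and 612 (5.32%) below every one. Tbr1, a factor of early deep-layer neurons, was at 0.171 in cluster 3 and 0.177 in the median excitatory-like cluster, and Neurod2 was at 0.254 in cluster 3 and 0.246 there. Neurod6, a factor of pallial excitatory neurons, was at 0.520 in cluster 3 against 1.29.

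Among the factors that were high, Zbtb20, a repressor known for specifying hippocampal neurons, was at 6.25 in cluster 3 against a median of 0.663 and a maximum of 1.12 in the excitatory-like clusters, 9.30-fold over the median. Over all 23 clusters it ranked only 9 in cluster 3, 1.84-fold over the median other cluster at 3.40. Zbtb20 is outside the naming rule and was chosen, like Tshz3, Tox3, Id2, Tbr1, Neurod6, Slc17a7 and Pgm5, after its values were seen. Nfia, a nuclear factor I member, was at 6.68 in cluster 3 against a median of 1.26 and a maximum of 5.29. Zfhx4, a zinc-finger homeobox factor, was at 1.30 in cluster 3 against a median of 0.274, although 1 excitatory-like cluster reached 2.12. Nr2f1, which patterns the cortex by area, was at 0.863 in cluster 3 against a median of 0.438 and a maximum of 0.833. Meis2 was at 7.28 in cluster 3 against a median of 3.13, but it was lower in cluster 3 than the mean of the other clusters weighted by their nuclei.

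**Figure D2:**
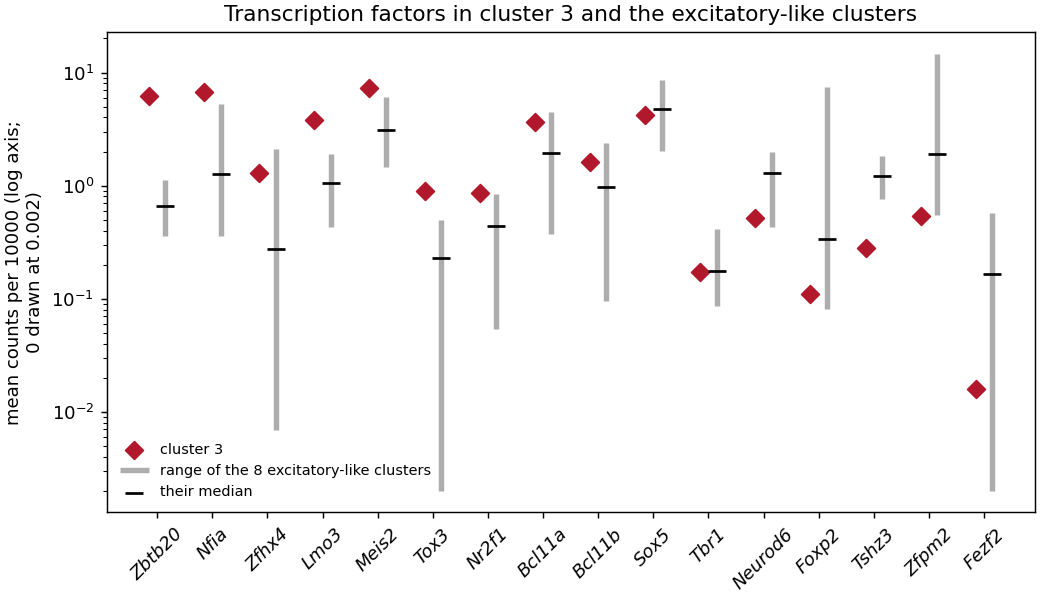
Mean level of 16 transcription factors in cluster 3 (red diamonds) and in the 8 excitatory-like clusters (grey bar for the range, black line for the median), in counts per 10000 on a log axis. The factors were chosen after their values were seen. Tshz3 in cluster 3 lies below the whole range (0.282 against 0.761 to 1.81), and Zbtb20, Nfia, Lmo3, Meis2, Tox3 and Nr2f1 lie above it.

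Across all genes that reached 0.05 in cluster 3 or in the median other cluster, 663 of 11597 were at least 2-fold higher in cluster 3 than in the median other cluster (5.72%), and 285 were at least 2-fold lower (2.46%). The median gene was at -0.04 on the log2 scale. Against the median excitatory-like cluster, 515 of 11498 were higher by 2-fold or more (4.48%) and 241 were lower (2.1%), with a median gene at 0.02. Of the 663 higher genes, 84 were highest in cluster 3 itself, while clusters 6, 14, 20 and 1 were the highest for 58, 55, 45 and 44 of them. Cluster 6 was highest for 8.75% of the higher genes and 3.16% of all genes tested, and cluster 1 for 6.64% and 1.28%. Cluster 20 was highest for 6.79% of the higher genes and 4.68% of all, and cluster 14 for 8.30% and 9.08%. Genes that can form a cluster cannot also test it, so these counts are descriptions.

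The laminar lists were mixed. Over all genes at the floor, 5.72% were higher and 2.46% lower than the median other cluster. Of the layer 2/3 list 0 of 7 members were past 2-fold against the median of all other clusters in either direction. Against the median excitatory-like cluster 4 of 7 were at least 2-fold higher and 0 lower, where 4.48% and 2.1% of all genes were. These 4, named after their values were seen, were Cux2 at 0.180 in cluster 3 against 0.0406, Calb1 at 0.371 against 0.0934, Cux1 at 1.27 against 0.590 and Rasgrf2 at 0.918 against 0.445. The list's summed level was 3.21 in cluster 3, rank 13 of 23, against 8.77 in cluster 1, the highest. Of the layer 4/5 list 1 of 6 was higher, Rorb, at 1.92 in cluster 3 against 0.783 in the median other cluster, a direction that turned against the mean weighted by nuclei. Of the layer 5 extratelencephalic list 2 of 6 were higher, Bcl11b and Npr3, and 2 were lower, Fezf2 and Pou3f1. Fezf2, which specifies subcerebral projection neurons, was at 0.0157 in cluster 3 against 0.165 in the median excitatory-like cluster. Bcl11b, also known as Ctip2, was at 1.63 in cluster 3 against 0.972 there.

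Npsr1, the receptor for neuropeptide S, was the 1 higher member of 6 on the near-projecting list, at 1.09 in cluster 3 against 0.0371 in the median other cluster. Cluster 5 had more, at 1.96, and cluster 15 had 0.604. Tshz2, the defining factor of near-projecting neurons, was at 0.0525 in cluster 3 against 0.168. Of the layer 6 corticothalamic list, Foxp2 was at 0.110 in cluster 3 against 0.718 in the median other cluster, Syt6 was also lower, and Hs3st4 was higher against that median but not against the excitatory-like median, at 5.15 against 5.85. Of the layer 6b list 0 of 6 were higher, 1 was lower and 4 were below the floor (over all genes, 5.72% higher and 2.46% lower).

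The lists for regions next to the cortex depended on the comparison as well. Over all genes at the floor, 5.72% were higher and 2.46% lower than the median other cluster. Against the excitatory-like median these shares were 4.48% and 2.1%. Below the floor were 1, 2 and 3 members of the pallial amygdala, olfactory cortex and claustrum lists. Of the pallial amygdala list 3 of 7 were higher than the median other cluster (Zfhx4, Lmo3 and Meis2) and 0 lower. Against the median excitatory-like cluster 4 of 7 were higher, with Zbtb20 as the fourth, and 1 was lower. The lower one, Rspo2, a secreted activator of Wnt signalling, was at 0.152 in cluster 3 against 0.967 in the median excitatory-like cluster, and the list's summed level ranked 6 of 23 in cluster 3. Of the olfactory cortex list 2 of 6 were higher than the median other cluster and 0 lower, and 3 of 6 were higher than the median excitatory-like cluster, with Calb1 as the third. The other members raised in both comparisons were Ntng1, a netrin-G, at 3.68 in cluster 3 against 1.04 in the median other cluster, and Nrp2, a semaphorin receptor, at 1.23 against 0.326. The highest summed level of that list was in cluster 17, and cluster 3 ranked 6. Of the claustrum list 2 of the 7 members in the table were higher, Ntng2 at 0.85 in cluster 3 against 0.0882 and Nr4a2 at 0.151 against 0.0599, and Synpr was lower, though not against the excitatory-like median. That list's summed level was 1.78 in cluster 3, rank 14 of 23, against 2.16 in the median other cluster. Cluster 20 had the highest sum, 23.1, with Ntng2 at 5.56 and Nr4a2 at 4.13.

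Of the lists for hippocampal CA1, CA3 and dentate granule neurons, 1 of 5, 0 of 5 and 0 of 5 members were higher, and of those for thalamus and mitral cells 0 of 5 and 0 of 6. In the same order, 3, 1, 3, 3 and 4 members were below the floor and could not be called. Over all genes at the floor 5.72% were higher and 2.46% lower, so 0 higher members in a list this short says little. Of the olfactory bulb granule list 1 of 6 was higher, Meis2, and 4 were lower. Of the striatal list 0 of 10 were higher. The Pvalb, Sst, and Vip and Lamp5 interneuron lists had 0 of 5, 0 of 5 and 1 of 5 higher, the last being Adarb2, whose direction turned against the mean weighted by nuclei. In these lists 2, 3 and 2 members were below the floor. Of the glial lists, 0 of 8 oligodendrocyte, 0 of 6 astrocyte and 0 of 7 microglia markers were higher, and 1, 0 and 1 were lower. Below the floor were 0, 4 and 1 of these glial markers. Their summed levels in cluster 3 ranked 22, 18 and 17 of 23. Of the precursor list 1 of 6 was higher, Vcan, at 0.275, 1 was lower and 4 were below the floor. All 5 endothelial and mural markers were below the floor, with a sum of 0.0799 in cluster 3 against 0.0425 in the median other cluster. Of the neuroblast list 0 of 6 were higher and 3 were below the floor. No layer or region list had most of its markers raised against the median of all other clusters. Against the excitatory-like clusters the layer 2/3 and pallial amygdala lists had 4 of 7 each raised. The olfactory cortex list had 3 of 6 raised there and 0 lower, or 3 of the 4 members at the floor. Lists for the anterior olfactory nucleus, taenia tecta and septum were not among those used, and the cluster stays without a cell type name.

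**Figure D3:**
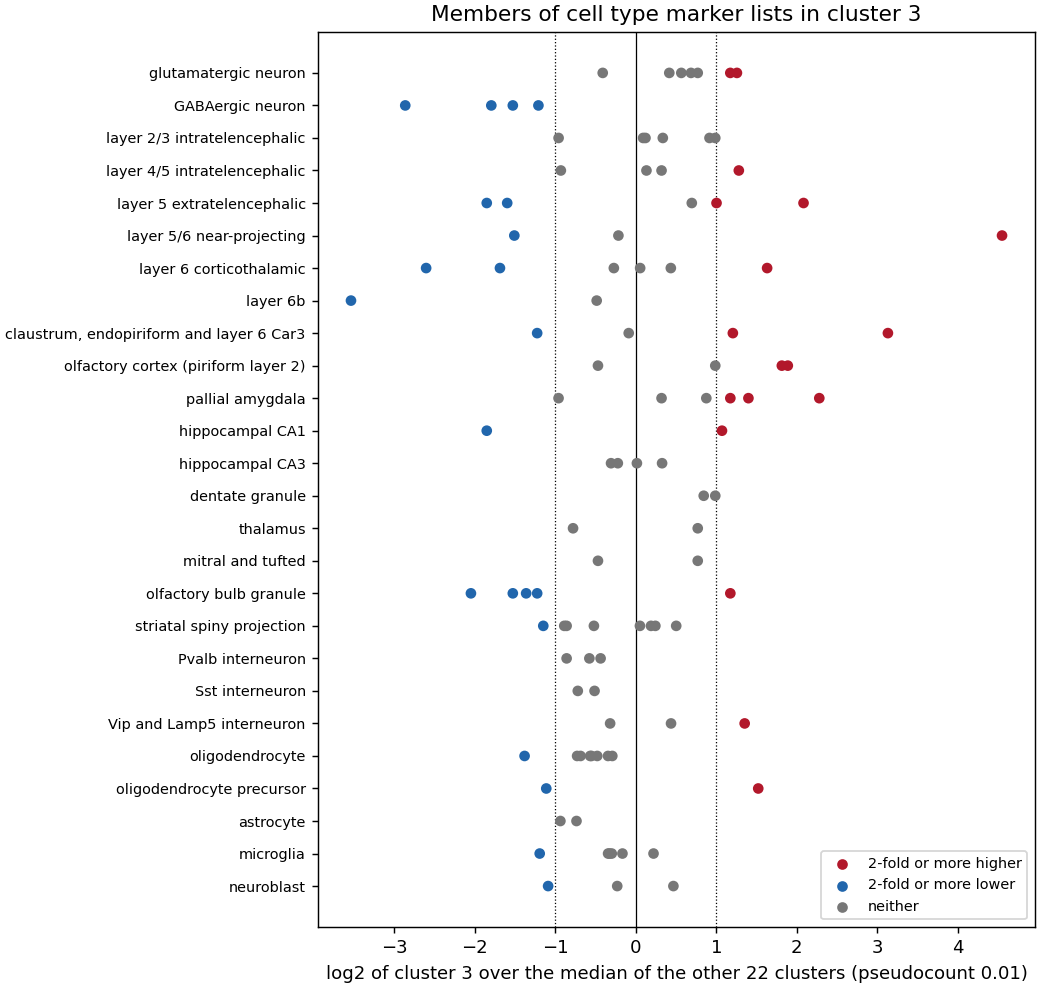
Log2 of the cluster 3 level over the median of the other 22 clusters for each member above the floor of 26 cell type marker lists, one row per list and one point per gene. Dotted lines mark 2-fold. Red points (higher) are spread over several lists, with 3 on the pallial amygdala list and 2 each on the layer 5 extratelencephalic, claustrum, olfactory cortex and glutamatergic lists.

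Over 12152 genes, the profile of cluster 3 was most like that of cluster 1 (Pearson r = 0.945 on log2 levels), followed by clusters 7 (0.940), 0 (0.939) and 5 (0.938). The values differ little, all columns share the 2 libraries, and genes are not independent replicates. The order changed with the settings, since with a floor of 0.5 or a pseudocount of 1 cluster 7 came first. The least like was cluster 22, at 0.392. Depth and nuclei numbers differ between these columns as well.

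**Figure D4:**
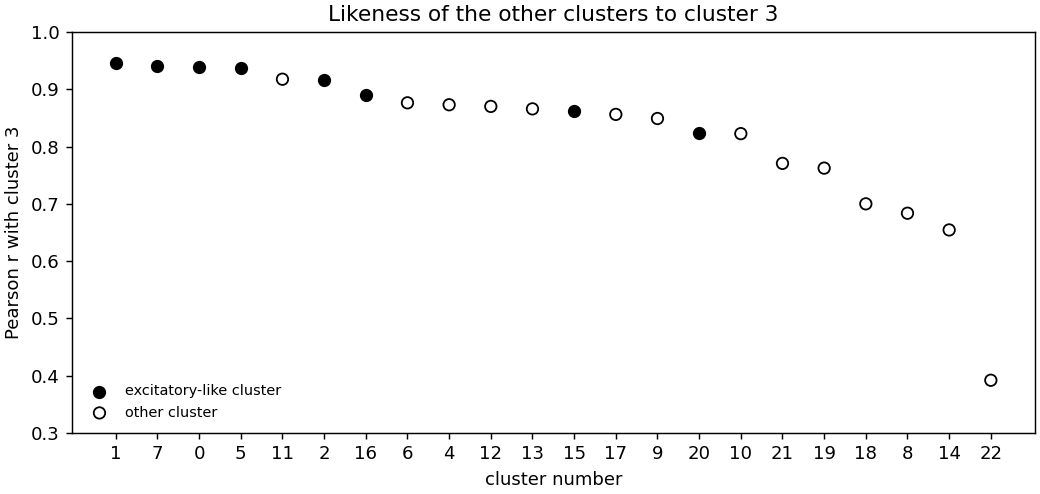
Pearson correlation of each other cluster with cluster 3 over 12152 genes, on log2 levels with a pseudocount of 0.01, ordered from high to low. Filled points are the 8 excitatory-like clusters. Clusters 1, 7, 0 and 5 lie within 0.938 to 0.945, and cluster 22 is at 0.392.

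Heparan sulfate chains are built on proteoglycans by polymerases and modified by sulfotransferases, and they bind growth and guidance factors. Of 26 enzymes of this pathway 9 were at least 2-fold higher in cluster 3 than in the median other cluster and 1 was lower (percent higher over all genes, 5.72%), and 2 were highest in cluster 3. Against the excitatory-like median 6 were higher and 1 lower (over all genes, 4.48% and 2.1%). Ndst4, among the higher genes in both counts, was a marker chosen for being high in this cluster, so its call was fixed in advance. Ndst3 was at 4.15 in cluster 3 against 0.715. The chain polymerase Ext1 was at 12.7 in cluster 3 against 3.20, with cluster 16 next at 11.1. Xylt1, which starts the chain, was at 6.12 in cluster 3 against 1.56. Sulf1, which removes sulfate from the finished chain, was at 0.699 in cluster 3 against 0.174, while the related Sulf2 was at 0.117 in cluster 3 against 0.424. Of 13 core proteins 2 were higher, Gpc4 and Tgfbr3, and 1 was lower, Gpc6, at 0.423 in cluster 3 against 2.87.

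BMPs signal through type I and type II receptors and are held back by secreted inhibitors. Of 33 genes of the pathway 13 were below the floor. Of the 20 others, 3 were higher and 0 lower, where 5.72% and 2.46% of all genes at the floor were. Beside the receptor Bmpr1b, the higher genes were the ligand Bmp6, at 0.0879 in cluster 3 against 0.0145 in the median other cluster, and the inhibitor Chrd, at 0.732 against 0.197. Of the AP-2 family 1 of 8 was higher, Tfap2d, and 6 were below the floor. Bmpr1b and Tfap2d were markers chosen for being high in this cluster, so their calls were fixed in advance.

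SLIT proteins bind Robo1 and Robo2, and NELL2 binds Robo3, to steer axons. Of 9 genes of these families 6 were higher and 0 lower against the median other cluster (over all genes, 5.72% and 2.46%). Nell2 was at 7.0 in cluster 3 against 2.03, and about as high in cluster 7, at 6.90, with an interval of the ratio from 0.948 to 1.08. Slit2 was at 4.40 in cluster 3 against 1.08, Slit3 at 5.27 against 1.0 and Robo2 at 12.2 against 5.32. Robo3 was low, at 0.0176 in cluster 3 against 0.418 in the median excitatory-like cluster. Against the excitatory-like median, Nell1 and Robo2 were 2-fold higher and Robo3 was lower (over all genes, 4.48% and 2.1%). Nell1, counted as higher in both comparisons, was a marker chosen for being high in this cluster, so its call was fixed in advance.

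Of 14 teneurins, latrophilins, FLRT and UNC5 genes 4 were higher (Tenm3, Unc5a, Unc5c and Unc5d) and 1 was lower, the teneurin receptor Adgrl2, at 0.356 in cluster 3 against 1.13, while against the excitatory-like median 2 were higher and 2 lower. The shares over all genes were 5.72% higher and 2.46% lower against the median other cluster, and 4.48% and 2.1% against the excitatory-like median. Tenm3, counted as higher in both comparisons, was a marker chosen for being high in this cluster, so its call was fixed in advance. Of 16 cadherins 3 were higher and 0 lower. Cdh9 was at 4.02 in cluster 3 against 0.742, Cdh6 at 1.58 against 0.493 and Cdh12 at 6.67 against 2.21. Of 23 semaphorins, plexins and neuropilins 2 were higher, Nrp2 and Plxnd1, and 4 were lower, Sema3c, Sema3d, Sema5a and Sema5b. Of 18 ephrins and Eph receptors 2 were higher and 2 lower. Ephb2 was at 0.0224 in cluster 3, the lowest of all 23 clusters, against 0.221.

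Receptors and channels showed a few differences of this size. Htr2c, a serotonin receptor, was at 5.27 in cluster 3 against 0.470 in the median other cluster, with cluster 15 at 8.71 and cluster 6 at 5.28. Cnr1, the cannabinoid receptor, was at 1.84 in cluster 3 against 0.582. Among 53 neuromodulator receptors 23 were below the floor. Of the others, 8 were higher than the median other cluster, and Drd1 and Adra1a were lower (over all genes, 5.72% and 2.46%). The balance turned against the excitatory-like median, where 2 were higher, Htr2c and Cnr1, and 10 were lower (over all genes, 4.48% and 2.1%). Of 12 GABA-A subunits 2 were higher, Gabrg1 at 0.586 in cluster 3 against 0.125 and Gabra2 at 4.99 against 1.91. Of 18 ionotropic glutamate receptor genes 2 were higher, Grin3a and Gria3, and 2 were lower. Of these Gria4 was at 5.19 in cluster 3 against 12.4, while Grik1, at 0.273 against 0.639, was higher than the excitatory-like median of 0.105. Of 7 metabotropic ones 0 were past 2-fold against the median other cluster, and 2 were lower than the excitatory-like median.

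Of 38 potassium channel genes 9 were higher and 1 was lower (5 and 0 against the excitatory-like median). Of 24 calcium, sodium and HCN channel genes 4 were higher and 0 lower. The shares over all genes were 5.72% higher and 2.46% lower, and 4.48% and 2.1% against the excitatory-like median. Cacna2d1, an auxiliary calcium channel subunit and a thrombospondin receptor, was at 14.0 in cluster 3 against 5.37. Cluster 4 was about as high, at 13.9, with an interval of the ratio from 0.963 to 1.06. Of 22 neuropeptide and related genes 0 were higher and 2 lower, Pnoc and Nxph1. Nxph1 turned to higher against the excitatory-like clusters.

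The largest decreases against the excitatory-like median were in adhesion, signalling and guidance genes. Samd5, which encodes a SAM domain protein, was at 0.0197 in cluster 3 against a median of 0.682 and a range of 0.127 to 1.80. It rests on 7 UMIs in cluster 3. Plcb4, a phospholipase C, was at 0.108 in cluster 3 against a median of 1.27 and a minimum of 0.540. Samd5, Plcb4, Mcc and Ephb2 were lower in cluster 3 than in any other cluster. The margin was small for Plcb4, at 0.112 in cluster 6, and for Mcc, at 0.0603 in cluster 3 and 0.0745 in cluster 5. Ldb2, a LIM domain binding cofactor, was at 0.849 in cluster 3 against a median of 5.26.

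Of 23 core clock genes 1, Rorb, was at least 2-fold higher in cluster 3 than in the median other cluster and 0 were lower, which is near the shares over all genes, 5.72% and 2.46%. Npas2 was at 1.18 in cluster 3, rank 10 of 23, above the median other cluster at 0.880 and below the median of the excitatory-like clusters at 1.78, with a maximum of 3.40 in cluster 6. Arntl2, a paralogue of the NPAS2 partner Arntl, was highest in cluster 3, at 0.272, with cluster 11 next at 0.225 and an interval of the ratio from 0.775 to 1.96. Of 20 immediate early genes 1 was higher, Nr4a2.

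By pattern over the 23 clusters, the genes most like Tfap2d were Hpse2 (r = 0.858), Synj1 (0.768), Acp7 (0.691), Nol4l (0.688) and Lingo1 (0.656), on log2 levels. For all of these but Acp7, cluster 20 was the highest cluster. Hpse2, a heparanase without known enzyme activity, was at 0.0688 in cluster 3 and 0.260 in cluster 20.

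The table pools both libraries in each cluster, so cluster 3 cannot be compared between genotypes gene by gene. Its nuclei could be divided from 737 values that equal 1 UMI in 1 nucleus. By that estimate 68.7% of cluster 3 nuclei (95% interval 63.6 to 73.4, counting error only) came from the knockout-labelled library. Cluster 3 then made up 10.3% of the knockout-labelled library (9.54 to 11.0) and 6.02% of the wild-type-labelled library (5.12 to 7.0), a ratio of 1.71 (1.36 to 2.15). The 108 values from genes listed in cluster 3 alone gave 65.5% and a ratio of 1.48 (0.953 to 2.42). A least squares split of all genes gave 85.5% and a ratio of 4.6, so the size of the difference depends on the method. The mean depth was 3615 UMIs for cluster 3 nuclei of the knockout-labelled library and 5391 for those of the wild-type-labelled library.

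The genes with most of their signal in cluster 3 were compared between whole libraries. Ndst4 was at 1.63 in the knockout-labelled library and 0.961 in the wild-type-labelled library, a ratio of 1.70 (1.59 to 1.82). Abi3bp was at 1.41 in the knockout-labelled library and 0.839 in the wild-type-labelled library, a ratio of 1.68 (1.56 to 1.81). Tfap2d was at 0.0894 in the knockout-labelled library and 0.0527 in the wild-type-labelled library, a ratio of 1.70 (1.26 to 2.30). Klhl14, a Kelch-like protein, was at 0.0797 in the knockout-labelled library and 0.0354 in the wild-type-labelled library, a ratio of 2.25 (1.59 to 3.25). Of all 14 genes with at least 50% of their signal in cluster 3, 11 were higher in the knockout-labelled library. The other 3 have no assigned name, and the lowest of them had a ratio of 0.397 (0.142 to 0.946). For these genes more nuclei and more RNA per nucleus cannot be told apart.

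The other markers had more of their signal elsewhere. Crtac1 was at 0.686 in the knockout-labelled library and 0.420 in the wild-type-labelled library, and the interval of its ratio was 1.47 to 1.81. Nell1 was at 2.24 in the knockout-labelled library and 1.77 in the wild-type-labelled library. Bmpr1b was at 0.875 in the knockout-labelled library and 0.756 in the wild-type-labelled library, a ratio of 1.16. Tenm3 was at 8.11 in the knockout-labelled library and 3.61 in the wild-type-labelled library, a ratio of 2.24, with 29.8% of its signal in cluster 3 and a higher level in cluster 4. Among the 11 genes that were 2-fold over every other cluster, 10 were higher in the knockout-labelled library, with a median log2 ratio of 0.54, and 0 were 2-fold higher. Over all 11771 genes at the floor, 40.9% were higher in that library, the median was -0.06, 67 (0.569%) were 2-fold higher and 271 (2.3%) were 2-fold lower.

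Other cell type markers moved between the libraries too. The median log2 ratio of the knockout-labelled over the wild-type-labelled library was taken over list members at the floor in cluster 3 or the median other cluster. It was 1.0 for 5 members of the olfactory bulb granule list, -1.73 for 8 of the striatal list and -1.61 for 8 of the oligodendrocyte list. The counts and sums that follow are over whole lists. Of the bulb list 6 of 6 members were higher in the knockout-labelled library, with summed levels of 20.7 in it and 10.9 in the wild-type-labelled library. Of the striatal list 9 of 10 were lower in the knockout-labelled library, with sums of 9.79 in it and 12.9 in the wild-type-labelled library. Of the oligodendrocyte list 8 of 8 were lower in the knockout-labelled library, with sums of 2.76 in it and 8.50 in the wild-type-labelled library. The tissue dissected cannot be told apart from genotype with 1 pooled library each, and the part of these shifts in the share of cluster 3 was not tested.

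**Figure D5:**
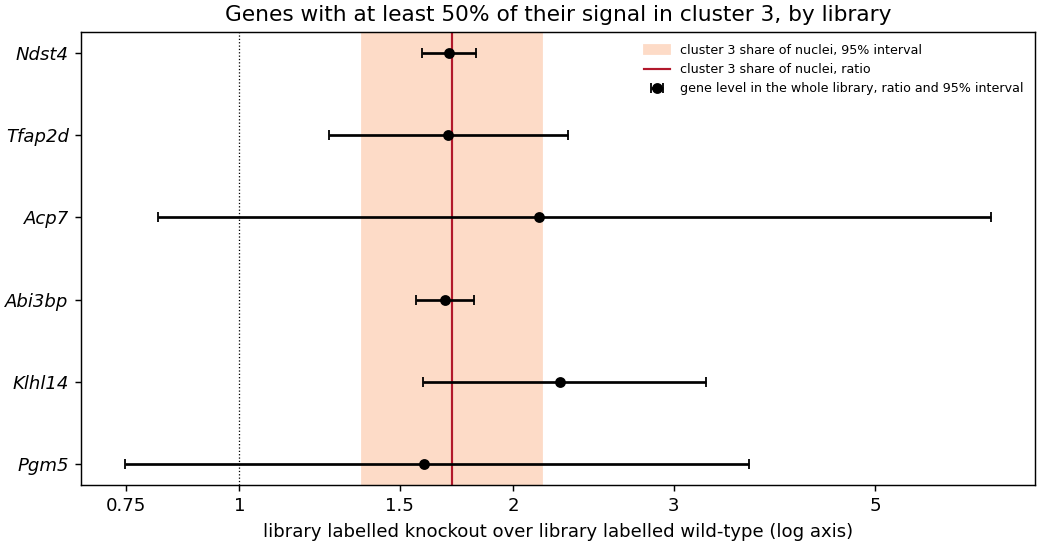
Ratio of the knockout-labelled library over the wild-type-labelled library (log axis) for the 6 named genes with at least 50% of their signal in cluster 3 (points with 95% counting intervals) and for the share of nuclei in cluster 3 (red line and band). Ndst4, Tfap2d and Abi3bp, at 1.70, 1.70 and 1.68, lie beside the share ratio of 1.71, and the intervals of Acp7 and Pgm5 include 1.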

How the data were processed

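The authors deposited 1 linear signal per gene and group, the average of normalized expression over nuclei, for both genotypes and for 23 clusters that mix the libraries. Each column summed to 10000 over 31053 genes. The build was mm10, per the submitters' processing notes. The aligner, clustering tool, nucleus filters, doublet treatment and cell type names: not given in the sources used here.

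Nuclei per column were computed from the linear relation between genotype and cluster columns, whose weights were whole numbers to within 1.13e-07. In genes listed in at most 10 clusters, values equal to 1 UMI in 1 nucleus gave that nucleus's depth (at least 1000 UMIs, tolerance 0.0001) and library. Each value was weighted by the inverse of its depth, because deeper nuclei give more such values. Of 7339 genes searched, 4157 could be solved. The steps were tested on simulated nuclei that all had more than 1000 UMIs, so the loss of shallower nuclei was not covered. The error allowed in the simulation was larger than the distance from the estimated share to either end of its interval. Of 182 depths seen more than once in cluster 3, 9 were placed in both libraries.

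Levels were compared as log2(value + 0.01), which understates the change of low genes, at a floor of 0.05 (in cluster 3 or in the level it was set against) and a fold of 2. Decreases named needed an excitatory-like median of at least 0.2. List sizes include members below the floor, which could not be called, while the shares over all genes are of genes at the floor only. Folds of 1 gene over another cluster or library are ratios without the pseudocount, with 95% Clopper-Pearson intervals on estimated UMIs, which cover counting error only. There is 1 library per genotype, and nuclei are not replicates, so no test was run. Intervals had been planned on counts, which the table does not hold.

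Named genes were the 7 markers, the 25 largest folds over the next cluster, the 15 largest decreases, list members past 2-fold (at most 6 a direction), Npas2 and the clock list, and the 5 genes most like Tfap2d. A few genes outside this rule were chosen after their values were seen and are said to be. Genes without an assigned name were counted, not named, and some genes of the rule and the lists are not reported here and were left out of the list counts. Positions are from GENCODE M21 and promoters from RefSeq. The cluster, its markers, the 47 gene lists and the choice of excitatory-like clusters were chosen with earlier results of these data known. Python 3.11.15, numpy 2.4.6, pandas 2.3.3 and scipy 1.17.1 were used.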

Additional observations from a re-analysis of the deposited data

How the results depend on the processing

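Values rest on 1 library per genotype and on column means. No paired analysis was possible because each genotype is 1 pooled library and no result comes from a test. For the 663 genes higher than the median other cluster, the count was 1137 with no floor, 325 with a pseudocount of 0.1, 93 with a pseudocount of 1, 282 at a fold of 3 and 237 against the mean of the other clusters weighted by nuclei. For the 285 lower genes it was 430, 86, 11, 93 and 833 under the same settings in the same order. The 11 genes past 2-fold over every other cluster became 3 with a pseudocount of 0.1, 3 with a pseudocount of 1 and 1 at a fold of 3. The nuclei share of 68.7% became 85.5% by least squares. Among genes named that were past 2-fold, the log2 difference against the weighted mean turned for Rorb (-0.33), Hs3st4 (-0.057), Meis2 (-0.18), Adarb2 (-0.94), Epha3 (-0.20), Kcnq5 (-0.28) and Cacna2d2 (-0.27). Against the excitatory-like median it turned for Gad1 (0.26), Hs3st4 (-0.18), Svil (0.40), Synpr (0.13), Pbx3 (0.62), Grik1 (1.29), Kcnq5 (-0.44), Kcnip1 (0.33) and Nxph1 (0.51). Of genes under 2-fold, Npas2 (0.42) turned to -0.59 against the excitatory-like median and -0.20 against the weighted mean, and Arntl (0.40) and Lingo1 (0.67) turned to -0.28 and -0.09 against the excitatory-like median. Cry2, Bhlhe40, Bhlhe41 and Dbp, all nearer to 0, also turned under at least 1 of these settings. The median log2 ratio between libraries of the genes leading in cluster 3, 0.54, was 0.23 with a pseudocount of 0.1, 0.03 with a pseudocount of 1, 0.52 with no floor, 0.60 after scaling to the median of all genes and 0.02 at a fold of 3, where 1 gene was left.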
